A study of Mus musculus with 24 samples.

Results

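Subcerebral projection neurons are cortical neurons whose axons run to the brainstem and the spinal cord. They were compared here between embryonic day 16 (E16) and embryonic day 15 (E15), the earliest step of a mouse cortex series, across every gene with a value of at least 1 at either day. The step draws on 4 of the 24 libraries of the series, 2 from E16 and 2 from E15, and 12921 of the 32310 entries in the deposited table met the rule. Both groups were subcerebral neurons purified by fluorescence-activated cell sorting from CD1 mice, an outbred laboratory strain, with no treatment. The labels set them apart by developmental stage alone. The remaining libraries are subcerebral neurons at E18 and postnatal day 1 (P1), and callosal neurons (which join the hemispheres) and corticothalamic neurons (which project to the thalamus) at the same 4 stages. Neither the proteins used for sorting nor the animals behind each library are stated by the labels.

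The table holds 1 value for each stage and subtype, in FPKM, a fragment count per gene corrected for transcript length and for the size of the library, so the 2 libraries of a group cannot be seen apart. No value below has an SD, and no difference was tested against the spread between libraries. Differences are log2(FPKM + 1) at E16 minus the same at E15, which understates the change of low genes. A gene is called higher or lower when that difference reaches 1, a 2-fold change. Stage cannot be told apart from anything else that differed between the collections of the days. The 12 columns summed to between 355965 and 473871 FPKM, with 390980 for E16 and 388489 for E15 subcerebral neurons, and their sequencing depth is unknown. Just over the filter, 197 entries reached 1 to 1.1 FPKM and had a median difference of -0.03. Just under it, 231 entries reached 0.9 to 1 FPKM and had a median difference of 0.0016.

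Subcerebral neurons lie mainly in layer V of the cortex and include the corticospinal neurons that carry voluntary movement. Their identity depends on the zinc finger transcription factor Fezf2 and on its downstream partner Bcl11b (CTIP2), which is needed for their axons to extend and bundle. Neighbouring deep-layer corticothalamic neurons depend on Tbr1, and regulators of the subtypes repress parts of each other's programmes while neurons mature. In the mouse these days fall in the period when subcerebral axons leave the cortex through the internal capsule.

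Both defining genes were highest in subcerebral neurons on each of these days, and neither was higher at E16. Bcl11b stood at 124 FPKM at E16 and 168 FPKM at E15 in subcerebral neurons, against 68.0 and 97.1 FPKM in corticothalamic neurons and 1.02 and 6.94 FPKM in callosal neurons. Fezf2 stood at 187 FPKM at E16 and 366 FPKM at E15 in subcerebral neurons, a difference of -0.97 that lies just short of 2-fold. Corticothalamic neurons had 118 and 125 FPKM of Fezf2, and callosal neurons 28.1 and 65.9 FPKM. The values do not go against the label, with the reservation that corticothalamic genes were also abundant in the subcerebral sample at E15, as described further on.

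The step was wider in subcerebral neurons than in the other subtypes. In subcerebral neurons 479 entries were higher at E16 (3.71%) and 322 were lower (2.49%), with 95 higher and 60 lower by at least 4-fold. Over the same entries the callosal step gave 190 higher (1.47%) and 111 lower (0.859%), and the corticothalamic step 100 higher (0.774%) and 67 lower (0.519%). The SD of the differences across entries was 0.55 in subcerebral, 0.38 in callosal and 0.31 in corticothalamic neurons, and the median was -0.02 in each. The entries were chosen on the subcerebral columns, and whether the steps differ between subtypes was not tested. Changes were found at every level of expression. Among entries whose higher value lay between 1 and 5 FPKM, 153 of 3369 were higher and 73 lower at E16. Between 5 and 20 FPKM 203 of 4779 were higher and 125 lower. At 20 FPKM and above 123 of 4773 were higher and 124 lower.

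**Figure D1:**
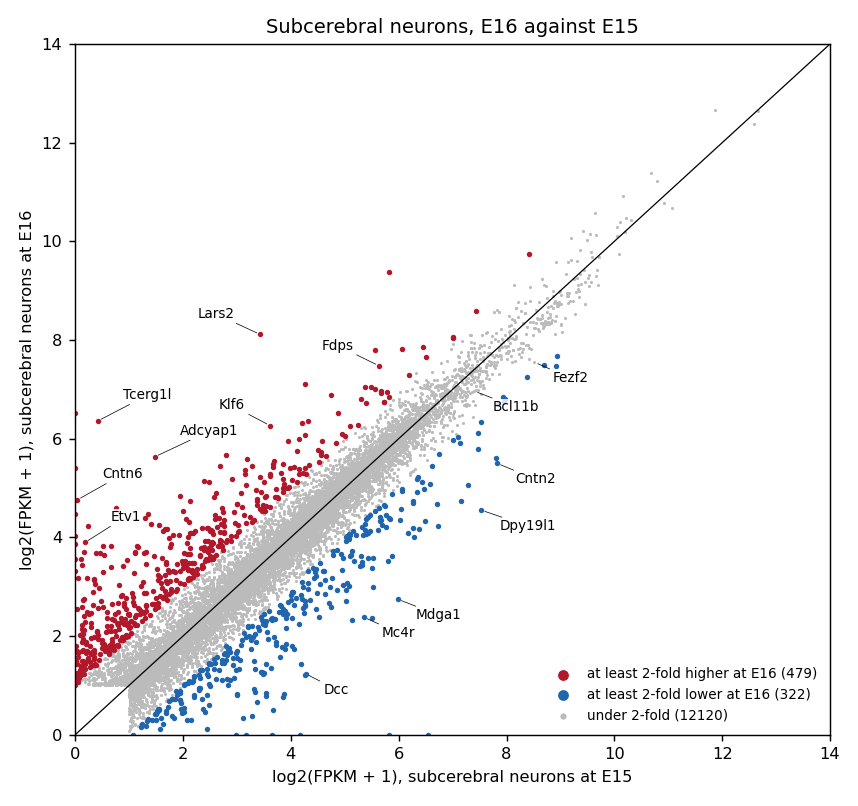
Level of each compared entry in subcerebral neurons at E16 (vertical axis) against E15 (horizontal axis), both as log2(FPKM + 1), with the line of equality in black. Red marks the 479 entries at least 2-fold higher at E16, blue the 322 at least 2-fold lower and grey the rest, and the labelled Bcl11b and Fezf2 lie below the line within 2-fold.

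Genes that were nearly silent at E15 and clearly present at E16 headed the list of increases. Tcerg1l, named for its similarity to a transcription elongation regulator, stood at 81.3 FPKM at E16 and 0.34 FPKM at E15, a difference of 5.94. In callosal neurons it was 0.48 and 0.21 FPKM, and in corticothalamic neurons 1.28 and 0.044 FPKM. Cntn6, which encodes a contactin adhesion molecule of the axon surface, had 26.1 FPKM at E16 and 0.030 FPKM at E15 in subcerebral neurons, and no more than 1.02 FPKM in the other subtypes at these days. Both genes were near 0 at E15 in every sorted subtype and stood out in subcerebral neurons at E16.

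Secreted peptides and signalling genes stood beside them. Adcyap1, the gene for the neuropeptide PACAP, had 48.7 FPKM at E16 and 1.80 FPKM at E15 (difference 4.15). Fam19a1, which encodes a small secreted protein, had 21.2 FPKM at E16 and was listed at 0 at E15, and Nts, the neurotensin gene, had 9.01 FPKM at E16 and was likewise listed at 0 at E15, so no difference is given for them. Nts was the exception in its later course, with 0.28 FPKM at E18 and 0.75 FPKM at P1, while Fam19a1 stood at 53.2 and 56.7 FPKM. Nts was also higher in corticothalamic neurons, at 13.3 FPKM at E16 and 0.011 FPKM at E15. Regulators of small GTPases were also among the largest increases. Arhgdib, an inhibitor of GTPase cycling, had 17.7 FPKM at E16 and 0.17 FPKM at E15. Arl4a, an ARF-like GTPase, had 23.0 and 0.69 FPKM, and Arap2, a GTPase-activating protein for ARF proteins, 12.03 and 0.13 FPKM. Arhgdib, Arl4a and Arap2 also passed 2-fold in callosal neurons, with differences of 1.36, 1.62 and 1.34. The tyrosine kinase Ptk2b (PYK2) had 13.3 FPKM at E16 and 0.43 FPKM at E15 (difference 3.32), and the uncharacterised A830018L16Rik 10.8 and 0.076 FPKM. Ptk2b was higher in corticothalamic neurons too, at 31.7 and 3.41 FPKM. A830018L16Rik differed by 1.08 in callosal and 1.38 in corticothalamic neurons. Among genes reaching 20 FPKM the phosphatase Ptprr (20.1 and 1.44 FPKM), the immunoglobulin-domain gene Ptgfrn (21.2 and 1.57 FPKM), the kinase Stk32c (27.7 and 2.85 FPKM) and the cadherin Cdh8 (50.0 and 5.96 FPKM) were also in the 10 largest increases. Lars2, which ranked 3 among them with a difference of 4.68, was higher in all 3 subtypes and is described further on.

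The largest decreases among named genes included several of the cell surface. Mdga1, a membrane-anchored immunoglobulin protein, had 5.70 FPKM at E16 and 62.5 FPKM at E15 in subcerebral neurons (difference -3.24), while callosal neurons had 71.8 and 67.3 FPKM. Dcc, the netrin receptor that guides commissural and cortical axons, had 1.36 FPKM at E16 and 18.4 FPKM at E15 (difference -3.04). Ntng2, the gene of membrane-anchored netrin-G2, had 1.31 and 18.1 FPKM, and the melanocortin receptor Mc4r 4.21 and 40.0 FPKM. In callosal neurons Ntng2 stayed high, at 91.3 FPKM at E16 and 121 FPKM at E15. Ntng2 and Mc4r were also lower in corticothalamic neurons, with differences of -1.02 and -1.54. Adhesion genes of higher level also belonged here. Cntn2, the axonal contactin TAG-1, had 44.3 FPKM at E16 and 226 FPKM at E15, and Alcam, an immunoglobulin-family adhesion molecule, 5.58 and 31.3 FPKM. Alcam passed 2-fold in callosal neurons too, with a difference of -1.29, while Cntn2 did not pass it in either other subtype.

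Other large decreases came from genes of transcription, signalling and the extracellular matrix. Dpf3, a subunit of the BAF chromatin remodelling complex, had 0.42 FPKM at E16 and 11.6 FPKM at E15. Rcor2, a corepressor, had 17.7 and 104.5 FPKM, and Gadd45g, a small stress- and differentiation-induced protein, 4.15 and 44.2 FPKM. Rgs16, which turns off G-protein signalling, had 4.02 FPKM at E16 and 34.2 FPKM at E15. The metalloproteases Adamts17 (0.70 and 13.5 FPKM) and Adamts3 (6.94 and 45.2 FPKM), the Ly6-family gene Lypd6 (0.78 and 13.7 FPKM), the sulfonylurea receptor Abcc8 (15.1 and 77.3 FPKM) and Dpy19l1 (22.5 and 184 FPKM) were the other largest decreases, over all genes or among genes reaching 20 FPKM. Gadd45g and Lypd6 were also lower in corticothalamic neurons (differences -1.76 and -1.45), Abcc8 in callosal neurons (-1.10) and Dpy19l1 in both. The largest decreases of all belonged to 2 entries named by cDNA identifiers, which had 16.9 and 11.6 FPKM at E15 and were listed at 0 at E16. The former also had 13.2 FPKM at E15 in corticothalamic neurons and was listed at 0 there at E16.

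Of 35 genes known from subcerebral neurons, 32 were compared, and 15 were higher at E16 and 3 lower, with a median difference of 0.91 against -0.02 over all entries. The same genes gave 3 higher and 4 lower in callosal neurons and 7 higher and 0 lower in corticothalamic neurons. A gene that met the filter only through E16 had to differ, so these counts describe the list and carry no test. Beside them, and beside each list count below, stand the shares over all entries, 3.71% higher and 2.49% lower. The list was drawn up with earlier results of these data known. Its median in subcerebral neurons was 0.53 over members with at least 5 FPKM and 0.68 with no filter. Etv1, an ETS transcription factor of layer V, had 13.9 FPKM at E16 and 0.14 FPKM at E15, and at E16 it stood at 1.03 FPKM in callosal and 1.41 FPKM in corticothalamic neurons. Pex5l, an accessory subunit of pacemaker channels, had 11.5 FPKM at E16 and 0.45 FPKM at E15. The S100-family gene S100a10 had 42.8 and 5.41 FPKM, and the natriuretic peptide receptor Npr3 28.9 and 5.10 FPKM. Crym, which binds thyroid hormone, had 42.6 FPKM at E16 and 8.66 FPKM at E15. Crym was also higher in corticothalamic neurons, at 59.6 FPKM at E16 and 16.4 FPKM at E15. Members with smaller increases were Rgs4 (15.99 and 3.55 FPKM), Ddah1 (23.3 and 5.65 FPKM), Vat1l (4.45 and 1.302 FPKM), Kcnab1 (2.29 and 0.50 FPKM), Crim1 (16.5 and 7.24 FPKM) and Bhlhe22 (267 and 127 FPKM). Kcnab1 stood higher in corticothalamic neurons, at 13.4 FPKM at E16 and 14.3 FPKM at E15.

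Transcription factors of the list differed in direction. Etv1 and Bhlhe22 were higher, and Fezf2 and Bcl11b, given above, were lower by less than 2-fold. In addition, the SOX factor Sox5, which times the birth of deep-layer neurons, was lower at E16, at 61.8 FPKM against 128 FPKM at E15 (difference -1.04). Igfbp4 (3.77 and 16.7 FPKM) and the ephrin receptor Epha4 (8.96 and 23.1 FPKM) were the other lower members. Differences under 2-fold included those of Siah3 (0.85), Diap3 (0.97), Nrp1 (0.36), Ldb2 (0.34), Ephb1 (0.31), Efnb3 (0.16), Chst8 (0.10), Pcp4 (-0.08), Cdh13 (-0.23), Lmo4 (-0.33) and Kif26a (-0.36). Pcp4, a calmodulin-binding peptide of layer V, stood at 6.09, 5.69, 65.9 and 180 FPKM at E15, E16, E18 and P1.

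Several genes of corticothalamic neurons were lower in the subcerebral sample at E16. Of 23 listed genes 19 were compared, with 7 lower and 2 higher at E16 and a median difference of -0.72. In corticothalamic neurons themselves 0 were lower and 4 higher, with a median of -0.13, and in callosal neurons 3 were lower and 0 higher. Tbr1, the transcription factor that specifies corticothalamic neurons, had 47.9 FPKM at E16 and 223 FPKM at E15 in subcerebral neurons, against 217 and 315 FPKM in corticothalamic neurons. The Wnt ligand Wnt7b had 32.6 FPKM at E16 and 154 FPKM at E15 in subcerebral neurons, against 217 and 300 FPKM in corticothalamic neurons. Tle4, a Groucho corepressor, had 23.0 and 65.3 FPKM, and the neurotrophin receptor Ngfr (p75) 0.83 and 9.08 FPKM. All 4 genes were lower in subcerebral than in corticothalamic neurons at both days, and the gap was wider at E16.

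The secreted neurexin ligands Nxph3 (10.5 FPKM at E16 and 54.5 FPKM at E15) and Nxph4 (2.36 and 15.6 FPKM) and the synaptotagmin Syt6 (5.02 and 25.8 FPKM) were the other lower members. Not every gene of the list moved this way. Crym, noted above, and Ntsr1, the neurotensin receptor at 45.0 FPKM at E16 and 21.9 FPKM at E15, were higher, and Rprm was at 391 and 224 FPKM (difference 0.80). Differences of the remaining members lay between -0.95 for Grik3 and 0.77 for Podn, with Wscd1 at -0.92, Foxp2 at -0.72, Zfpm2 at -0.54, Whrn at -0.50, Igfbp3 at -0.27, Gdf10 at -0.22 and Tmem132b at 0.40. The summed level of the 22 listed genes in the table was 718 FPKM at E16 and 977 FPKM at E15 in subcerebral neurons, with none listed at 0, against 1860 and 2076 FPKM in corticothalamic neurons. In such bulk samples fewer cells of a type and less RNA per cell cannot be told apart, and the part that other sorted cells had in the result was not tested. An alternative chosen after seeing the data left out every gene at least 2-fold higher in callosal or corticothalamic neurons than in both other subtypes at E18 and P1. Of 12921 entries 12686 remained, with 460 higher and 253 lower. The genes left out were picked for lower later levels in subcerebral neurons, which favours removing lower genes. These counts therefore do not measure the part of other sorted cells.

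Callosal and upper-layer genes were mixed. Of 29 listed genes 23 were compared, 5 higher and 6 lower at E16, with a median difference of 0.25. The homeobox factor Pou3f1 was higher, at 33.9 FPKM at E16 and 4.57 FPKM at E15, while callosal neurons had 52.3 and 55.2 FPKM and corticothalamic neurons 2.73 and 1.17 FPKM. Gucy1a3 (27.1 and 4.97 FPKM), Kitl (15.998 and 3.36 FPKM) and Pvrl3 (19.9 and 5.37 FPKM) were among the higher members as well. Kitl was highest in corticothalamic neurons, at 106 FPKM at E16 against 16.1 FPKM in callosal neurons. Besides Mdga1 and Ntng2, the lower members were Lpl (11.4 and 58.0 FPKM), Epha3 (0.66 and 4.09 FPKM), Shisa2 (0.39 and 2.23 FPKM) and Btg1 (14.1 and 31.5 FPKM). The upper-layer factors Cux2 (1.68 and 1.26 FPKM), Cux1 (4.31 and 2.06 FPKM) and Lhx2 (7.38 and 8.46 FPKM) stayed low and within 2-fold, at levels far under the 65.2, 67.9 and 133 FPKM of callosal neurons at E16. The other members differed by between -0.72 for Cited2 and 0.88 for Pou3f2, with Tle3 at -0.50, Plxnd1 at -0.23, Pou3f3 at 0.12, Dkk3 at 0.27, Flrt3 at 0.28, Ptn at 0.47 and Rorb at 0.63.

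**Figure D2:**
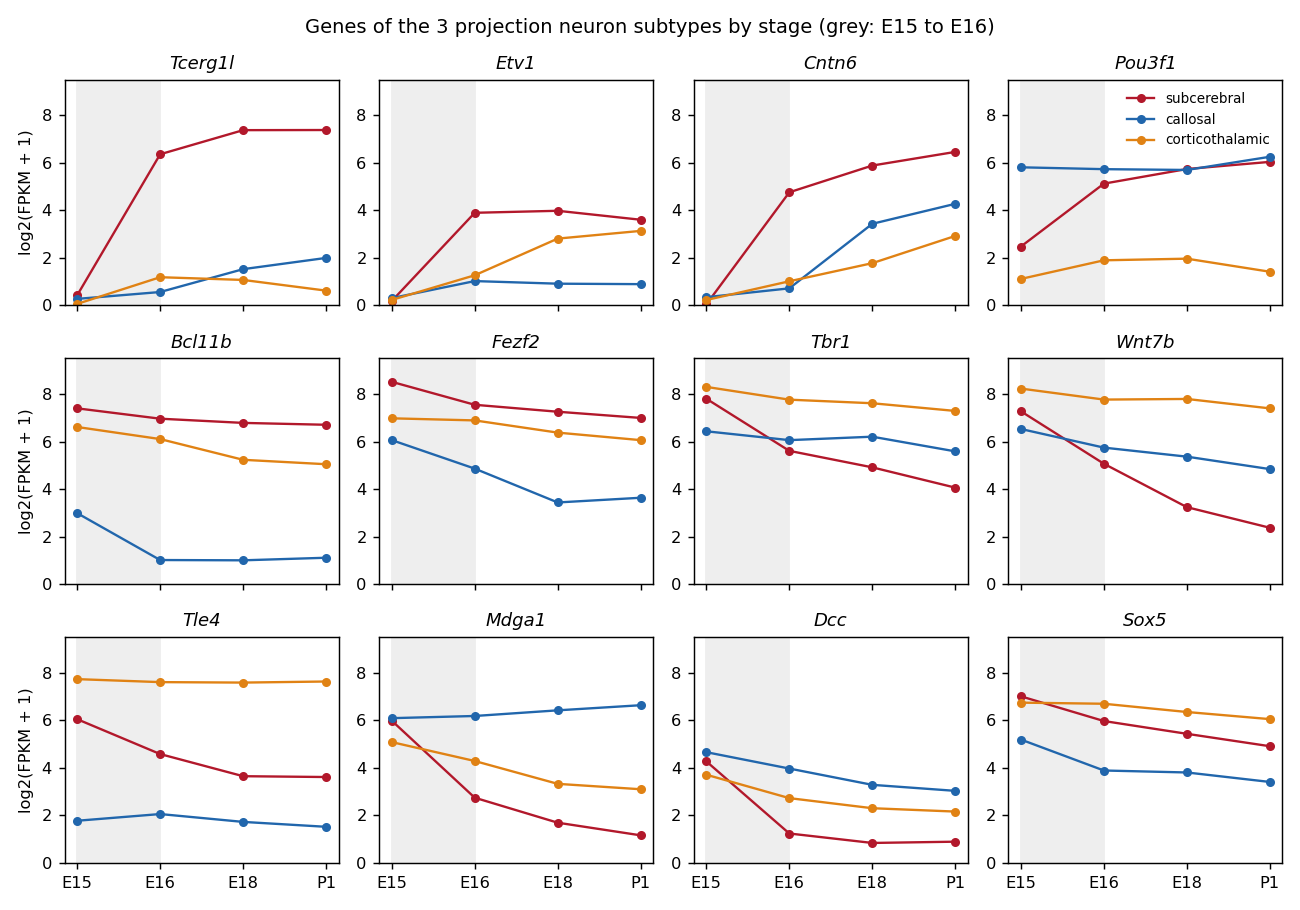
Level of 12 genes as log2(FPKM + 1) at E15, E16, E18 and P1 in subcerebral (red), callosal (blue) and corticothalamic (orange) neurons, 1 pooled value per point, with the E15 to E16 step shaded. In the red line Tcerg1l, Etv1, Cntn6 and Pou3f1 climb within the shaded step, Tbr1, Wnt7b, Mdga1 and Dcc drop within it, and Bcl11b and Fezf2 move by less than 2-fold.

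Genes were also grouped by their levels at E18 and P1, columns the step does not use. At both of those stages 31 genes were at least 4-fold higher in subcerebral neurons than in each other subtype. All 31 were compared, 26 were at least 2-fold higher at E16 than at E15 in subcerebral neurons, and all 31 differences were above 0, with a median of 2.16. Of these genes 18 were under 1 FPKM at E15 and met the filter only through E16, so they had to be higher, and 7 are also in the subcerebral list above. The counts describe the set and are no independent support. The same genes had a median of 0.07 in callosal and 0.23 in corticothalamic neurons. Examples outside the lists above, chosen after their values were seen, were the netrin-G1 gene Ntng1 (4.64 FPKM at E16 and 0.16 FPKM at E15), the thioredoxin-family gene Nxn (10.1 and 1.48 FPKM), the sorting receptor Sorcs1 (3.08 and 0.060 FPKM), the Wnt agonist Rspo2 (3.11 and 0.089 FPKM) and the guanine deaminase Gda (2.15 and 0.032 FPKM). Sorcs1 and Gda were still far below their P1 levels of 63.9 and 40.0 FPKM.

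Genes 4-fold higher in corticothalamic neurons at E18 and P1 numbered 40, of which 32 were compared in subcerebral neurons. There 19 were at least 2-fold lower and 2 higher at E16, with a median of -1.48, and in corticothalamic neurons the median of these genes was -0.03. The 2 higher ones were Kcnab1 and Kitl, named above with the subcerebral and the callosal lists. Members under 1 FPKM at E16, such as Ngfr, met the filter only through E15 and had to be lower. As before, the counts describe the set and are no independent support. Nfia, a transcription factor of glial and deep-layer development, had 17.3 FPKM at E16 and 75.7 FPKM at E15, the dopamine-signalling phosphatase regulator Ppp1r1b 16.9 and 82.7 FPKM, and the Wnt inhibitor Apcdd1 7.13 and 32.9 FPKM. Of 26 genes 4-fold higher in callosal neurons, 14 were compared, with 2 higher and 3 lower and a median of 0.10. Lowering the margin to 2-fold gave 84 higher and 0 lower of 124 compared subcerebral-high genes, and 54 lower and 6 higher of 145 compared corticothalamic-high genes. The same limit of the filter holds for these larger sets.

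**Figure D3:**
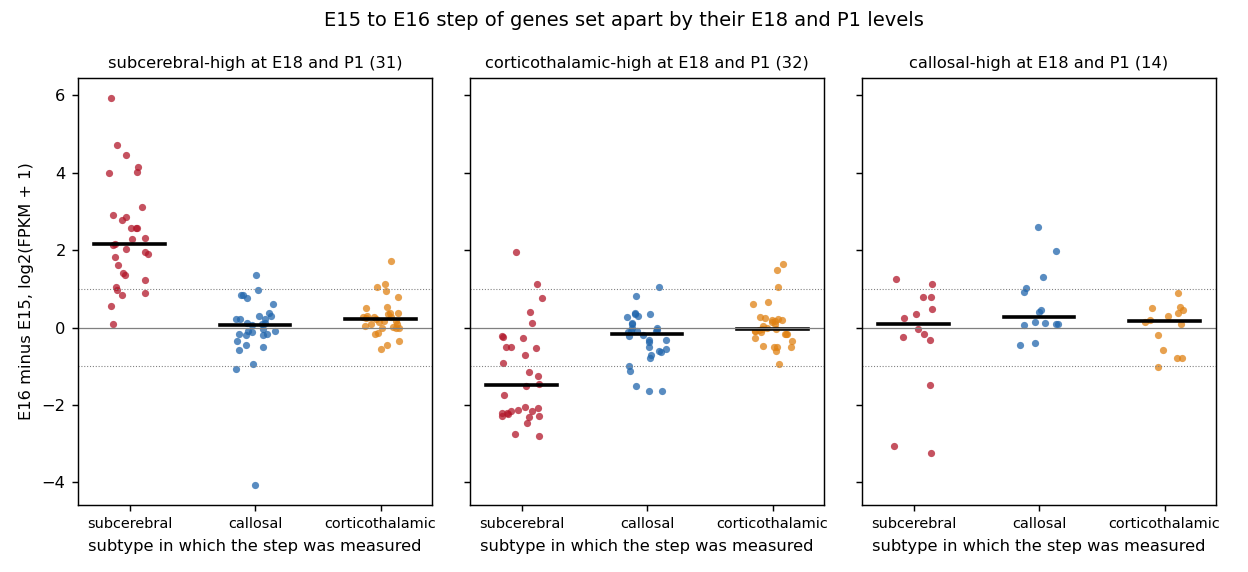
Difference between E16 and E15, in log2(FPKM + 1), for genes at least 4-fold higher at E18 and P1 in subcerebral (31), corticothalamic (32) or callosal neurons (14), each measured in the 3 subtypes along the horizontal axis. Points are genes, spread sideways for sight only, and black bars are medians, which in subcerebral neurons lie at 2.16, -1.48 and 0.10.

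From E15 to E16 the share of genes at least 2-fold apart grew between subcerebral neurons and each other subtype. Callosal and corticothalamic neurons were not compared with each other. Subcerebral and corticothalamic neurons differed by at least 2-fold at 3.23% of genes at E15, 5.35% at E16, 7.37% at E18 and 9.1% at P1. Against callosal neurons the shares were 5.48%, 6.94%, 7% and 8.21%, nearly level from E16 to E18. Genes higher in subcerebral than in corticothalamic neurons numbered 137 at E15 and 314 at E16, and genes lower numbered 278 and 384.

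Cholesterol synthesis was the list with the largest median of all those with at least 10 compared genes. Neurons make sterols for new membrane, and the sterol-regulated factor Srebf2 drives the genes of the pathway together. Of 25 listed genes 24 were compared, 15 were higher at E16, 0 were lower, and all 24 differences were above 0, with a median of 1.17. The medians were 0.18 in callosal neurons, where 1 gene was higher, and 0.26 in corticothalamic neurons, where 0 were. The summed level of the list was 1271 FPKM at E16 and 537 FPKM at E15. In the order of the pathway, Acat2, the thiolase at its start, had 104 FPKM at E16 and 41.2 FPKM at E15. The HMG-CoA synthase Hmgcs1 had 5.57 and 0.40 FPKM. The mevalonate enzymes Mvk (22.3 and 10.5 FPKM) and Mvd (46.1 and 11.8 FPKM) and the isoprenoid enzymes Idi1 (38.1 and 7.85 FPKM) and Fdps (177 and 48.7 FPKM) were higher as well.

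The squalene and sterol steps that follow repeated the pattern. Sqle, the squalene epoxidase, had 128 FPKM at E16 and 46.2 FPKM at E15. Among the sterol enzymes, Cyp51 had 52.0 and 22.7 FPKM, Sc4mol 61.4 and 14.5 FPKM, Nsdhl 30.1 and 9.26 FPKM and Dhcr7 31.6 and 14.7 FPKM. The sterol sensor Insig1 had 38.6 FPKM at E16 and 13.1 FPKM at E15. The members short of 2-fold were Lss (0.97), Fdft1 (0.72), Hsd17b7 (0.71), Sc5d (0.65), Tm7sf2 (0.60), Stard4 (0.53), Srebf2 (0.47), Pmvk (0.12) and Ebp (0.10). Levels did not go on climbing for all of them. Idi1 stood at 7.85, 38.1, 41.4 and 20.6 FPKM at E15, E16, E18 and P1, and Fdps at 48.7, 177, 234 and 256 FPKM.

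**Figure D4:**
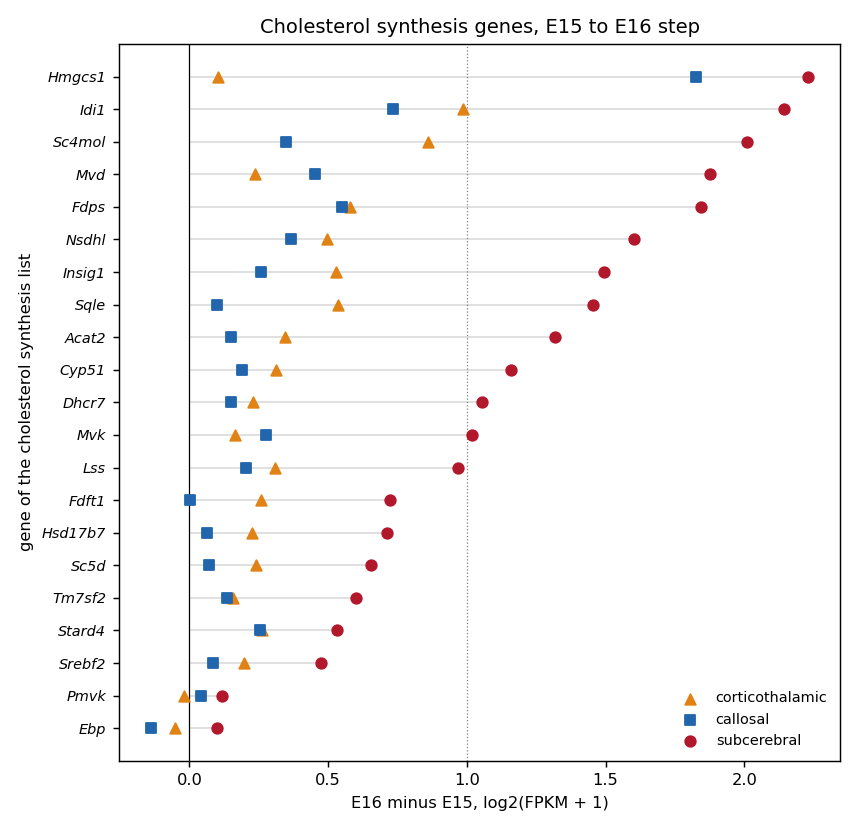
Difference between E16 and E15, in log2(FPKM + 1), for 21 of the 24 compared cholesterol synthesis genes in subcerebral (red circles), callosal (blue squares) and corticothalamic neurons (orange triangles), with the 2-fold line dotted. The red circle is the rightmost symbol of every gene shown, from 0.10 for Ebp to 2.23 for Hmgcs1.

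The promoters of 3 of these genes are shown because the list moved together and its members are known to share control by SREBP factors, which bind sterol regulatory elements beside CCAAT boxes. RefSeq gave promoter windows for 17 of the 25 listed genes, too few for a statement on the list, so the 3 with the largest differences and a single window are printed. Each window holds 300 bases around the start, on GRCm38.p6, which is not the build named by the submitters, 5′ to 3′ on the gene's strand. Capitals mark the letters TCACNCCAC, a sterol regulatory element core, and CCAAT, each searched on both strands. The core was present in the windows of 1.44% of 27025 genes, and CCAAT in those of 41.1%. Of the 17 listed genes with a window, Hmgcs1 was the 1 that held the core, and 16 held CCAAT. A gene counted when any of its windows matched, so genes with more windows had more chances. The counts were not tested and carry no statement on the list. Hmgcs1 lies at chr13:119690101-119690400 on the plus strand and has 1 core match and 4 CCAAT matches. Idi1 lies at chr13:8885356-8885655 on the plus strand and has 0 core and 2 CCAAT matches. Sc4mol, named Msmo1 in RefSeq, lies at chr8:64733529-64733828 on the minus strand and has 0 core and 3 CCAAT matches. A match is a run of letters and was not tested as a binding site.
Hmgcs1: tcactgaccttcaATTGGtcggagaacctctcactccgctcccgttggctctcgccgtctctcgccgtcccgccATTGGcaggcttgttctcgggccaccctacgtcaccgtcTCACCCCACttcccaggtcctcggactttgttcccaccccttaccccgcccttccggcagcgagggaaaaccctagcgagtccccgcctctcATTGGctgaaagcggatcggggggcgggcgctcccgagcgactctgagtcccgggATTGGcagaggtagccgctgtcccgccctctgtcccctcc
Idi1: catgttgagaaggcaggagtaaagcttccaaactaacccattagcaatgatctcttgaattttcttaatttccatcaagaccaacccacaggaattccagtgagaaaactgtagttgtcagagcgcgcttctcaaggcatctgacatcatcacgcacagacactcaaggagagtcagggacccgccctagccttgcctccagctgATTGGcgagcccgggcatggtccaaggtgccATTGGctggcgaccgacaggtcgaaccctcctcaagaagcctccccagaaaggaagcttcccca
Sc4mol: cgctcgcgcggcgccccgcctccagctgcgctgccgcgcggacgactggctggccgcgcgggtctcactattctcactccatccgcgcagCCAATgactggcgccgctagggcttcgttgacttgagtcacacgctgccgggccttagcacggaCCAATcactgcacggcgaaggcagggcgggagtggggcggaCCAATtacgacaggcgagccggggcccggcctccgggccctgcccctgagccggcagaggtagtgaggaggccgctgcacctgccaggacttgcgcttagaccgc

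Adhesion genes changed in both directions. Of 28 axonal adhesion genes 27 were compared, 10 higher and 4 lower at E16, with a median difference of 0.44, against 0.32 in callosal and 0.18 in corticothalamic neurons. The contactins divided. Cntn6 and Cntn3 (7.27 FPKM at E16 and 0.28 FPKM at E15) were higher, as were Cntn4 (2.48 and 0.0052 FPKM), Cntn5 (2.30 and 0.10 FPKM) and Cntn1 (35.1 and 13.5 FPKM), while Cntn2 and the contactin-associated Cntnap4 were lower. The neural cell adhesion molecules were both upward, with Ncam2 at 11.95 FPKM at E16 and 1.17 FPKM at E15 and Ncam1 at 226 and 124 FPKM, a difference of 0.86 that is short of 2-fold. Thy1, a surface protein of mature projection neurons, had 11.6 and 5.08 FPKM, and Lsamp, of the IgLON family, 22.0 and 6.74 FPKM.

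Of 33 cadherin genes 25 were compared, 10 higher and 1 lower, with a median of 0.75, against -0.07 in callosal and 0.01 in corticothalamic neurons. Cadherins are calcium-dependent adhesion molecules by which like neurons recognise each other. Cdh8 led, followed by Cdh18 (3.82 FPKM at E16 and 0.23 FPKM at E15), Pcdh7 (29.0 and 7.41 FPKM), Cdh7 (6.33 and 1.07 FPKM), Pcdh10 (11.6 and 3.21 FPKM) and Cdh20 (1.98 and 0.033 FPKM). Cdh4 was the lower member, at 3.00 FPKM at E16 and 8.38 FPKM at E15. The median rests on genes of low level, since it was 0.06 over members with at least 5 FPKM and 0.10 with no filter. The abundant Cdh2, N-cadherin, was at 163 and 196 FPKM.

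Guidance genes passed 2-fold in both directions. In the netrin and slit list 17 of 27 genes were compared, with 1 higher and 3 lower and a median of -0.44. Shares over all entries were 3.71% higher and 2.49% lower, and so short a list was not tested against them. Robo2, a receptor for the repellent slits, was the higher one, at 42.0 FPKM at E16 and 11.8 FPKM at E15, and the lower ones were Dcc, Ntn4 (0.33 and 1.84 FPKM) and the netrin coreceptor Dscam (12.2 and 26.4 FPKM). Robo2 was higher in corticothalamic neurons too, at 17.8 and 5.54 FPKM. Robo1 was at 60.0 FPKM at E16 and 71.7 FPKM at E15, a difference of -0.25.

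Of 31 semaphorin, plexin and neuropilin genes 24 were compared, with 3 higher, 0 lower and a median of -0.12. Counts here and for the ephrins were not tested against the 3.71% higher and 2.49% lower over all entries. The higher members were ligands or transmembrane semaphorins, Sema3c (5.26 FPKM at E16 and 0.60 FPKM at E15), Sema3e (3.79 and 0.72 FPKM) and Sema6d (12.8 and 4.58 FPKM). The plexin receptors lay between -0.70 for Plxnc1 and -0.06 for Plxnb1. Among 22 ephrins and Eph receptors 18 were compared, with 2 higher and 3 lower and a median of -0.18. Efna5 (17.4 and 4.50 FPKM) and Epha8 (4.65 and 0.74 FPKM) were higher, and Epha3, Epha4 and Efnb1 (21.0 and 43.3 FPKM) lower.

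Neurofilament genes and Gap43 were higher among genes of the growth cone and cytoskeleton. Of 47 listed genes 45 were compared, 4 higher and 0 lower, where all entries gave 3.71% higher and 2.49% lower. Above 0 lay 33 differences, with a median of 0.42, against 0.11 in callosal and -0.05 in corticothalamic neurons. The neurofilament subunits that give projection axons their calibre were the largest, with Nefl at 18.2 FPKM at E16 and 1.65 FPKM at E15 and Nefm at 37.7 and 11.3 FPKM. Peripherin, Prph, had 3.57 and 0.22 FPKM, and the growth cone protein Gap43 383 and 171 FPKM. Very abundant members stayed short of 2-fold, among them stathmin-2, Stmn2 (0.97), the neuronal tubulins Tuba1a (0.78) and Tubb3 (0.75), and tau, Mapt (0.57).

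More receptor and channel genes passed 2-fold higher than lower. For GABA receptors and chloride transport, 15 of 18 genes were compared, with 6 higher, 0 lower and a median of 0.92, while callosal neurons gave 5 higher and a median of 0.62. Gabra5 had 11.8 FPKM at E16 and 1.42 FPKM at E15, the extrasynaptic subunit Gabrd 8.75 and 1.12 FPKM, and Slc12a5, the chloride exporter KCC2, 7.97 and 3.38 FPKM. Gabrd was at 0.22 and 0.12 FPKM in callosal neurons and at 2.75 and 2.54 FPKM in corticothalamic neurons. Gabrb2 was also higher, as was the glycine receptor Glra2, which had 65.7 FPKM at E16 and 31.1 FPKM at E15.

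Of 52 glutamate receptor and postsynaptic genes 44 were compared, 10 higher and 3 lower, with a median of 0.31. Callosal neurons gave 9 higher and 1 lower with a larger median of 0.37, and corticothalamic neurons a median of 0.15. The metabotropic receptors Grm3 (11.9 FPKM at E16 and 0.38 FPKM at E15), Grm5 (19.8 and 3.15 FPKM) and Grm7 (3.91 and 0.13 FPKM) and the kainate receptor Grik2 (34.3 and 4.22 FPKM) led the increases. The AMPA receptor subunits went the other way or held, with Gria1 (6.36 and 21.5 FPKM) and Gria3 (4.70 and 13.9 FPKM) lower and Gria2 at 137 and 148 FPKM. Lrrtm3 was the last of the lower members, at 5.07 and 18.2 FPKM. In 50 voltage-gated channel genes 44 were compared, with 9 higher, 3 lower and a median of 0.21. The median was larger in callosal neurons, at 0.30 with 3 higher, and 0.13 in corticothalamic neurons with 4 higher. The sodium channel gene Scn2a1 had 52.5 FPKM at E16 and 16.3 FPKM at E15. Kcnip2 had 16.4 and 4.63 FPKM, Scn1a 3.04 and 0.34 FPKM, and the potassium channel Kcna1 was lower, at 0.81 and 10.6 FPKM. The subcerebral median of the channel list turned to -0.10 over members with at least 5 FPKM.

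Release genes were closer to level. Of 40 listed genes 36 were compared, with 6 higher, 1 lower and a median of 0.19, where all entries gave 3.71% higher and 2.49% lower. Syt4, a vesicle protein that responds to activity, had 137 FPKM at E16 and 18.1 FPKM at E15, and Amph, amphiphysin of endocytosis, 81.0 and 18.8 FPKM. The vesicular glutamate transporter Slc17a7 was the lower member, at 23.9 and 52.6 FPKM.

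**Figure D5:**
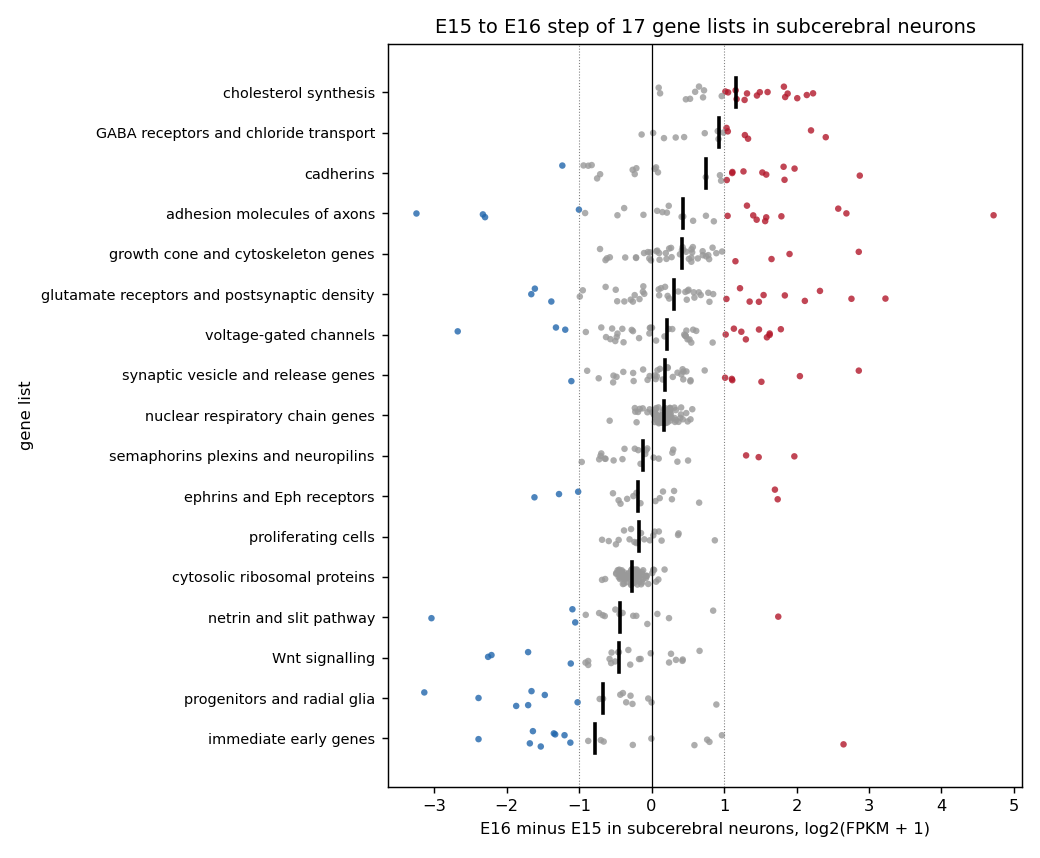
Difference between E16 and E15 in subcerebral neurons, in log2(FPKM + 1), for the compared members of 17 gene lists, with red and blue points past 2-fold and black bars at the median. Cholesterol synthesis has the rightmost median at 1.17 and immediate early genes the leftmost at -0.79, while cytosolic ribosomal proteins and nuclear respiratory chain genes have no point past 2-fold.

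Among progenitor genes more passed 2-fold lower than higher. Of 33 progenitor and radial glia genes 17 were compared, 0 higher and 7 lower, with a median of -0.67, against -0.07 in callosal and -0.69 in corticothalamic neurons. Neurog2, the proneural factor of cortical progenitors, had 1.18 FPKM at E16 and 6.08 FPKM at E15, Insm1 9.71 and 38.1 FPKM, and the Notch ligand Dll1 10.4 and 35.1 FPKM. Gadd45g, Btg2, Slc1a3 and Id4 were the other lower members. The defining radial glia and progenitor genes Sox2, Hes1, Hes5 and Hopx stayed under 1 FPKM at both days, while Pax6 was at 0.64 and 1.22 FPKM and Eomes at 0.72 and 1.11 FPKM. The list summed to 194 FPKM at E16 and 339 FPKM at E15. The genes of 20 compared proliferation markers, out of 35, gave 0 past 2-fold and a median of -0.17. The part of immature cells in these changes was not tested.

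Genes of migration and early differentiation gave 2 higher and 6 lower of 34 compared out of 39, with a median of -0.18. All entries gave 3.71% higher and 2.49% lower. Nhlh1, a transient factor of newborn neurons, had 0.085 FPKM at E16 and 4.42 FPKM at E15. The small GTPase Rnd3 had 7.21 and 30.4 FPKM, and the chemokine receptor Cxcr7 0.52 and 4.57 FPKM. Higher were Mef2c, a factor of maturing neurons (233 and 86.7 FPKM), and Reln, which encodes the secreted protein reelin (12.7 and 4.04 FPKM).

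Immediate early genes, which respond within minutes to activity or to handling of cells, gave 1 higher and 8 lower of 18 compared out of 28, with a median of -0.79. Ier5 had 54.2 FPKM at E16 and 176 FPKM at E15, Junb 5.19 and 18.2 FPKM, Egr1 2.34 and 8.64 FPKM and Jun 17.4 and 39.0 FPKM. Klf6 was the exception, at 75.9 FPKM at E16 and 11.3 FPKM at E15, and Fos was at 1.42 and 0.39 FPKM. The labels state no dissociation times.

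The Wnt list gave 0 higher and 4 lower of 24 compared out of 36, with a median of -0.45. The receptor Fzd2 had 1.36 FPKM at E16 and 10.3 FPKM at E15, the pathway inhibitor Nkd1 1.51 and 7.17 FPKM and Prickle1 9.26 and 21.2 FPKM, beside Wnt7b. For FGF signalling, 16 of 19 genes were compared, with 2 higher and 4 lower, where all entries gave 3.71% higher and 2.49% lower. The receptors Fgfr1 (8.01 FPKM at E16 and 26.2 FPKM at E15) and Fgfr2 (6.19 and 23.8 FPKM), the ligand Fgf18 (2.53 and 12.3 FPKM) and the feedback phosphatase Dusp6 (15.2 and 31.4 FPKM) were lower, while Etv1 and the channel-binding Fgf12 (6.29 and 1.48 FPKM) were higher.

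No ribosomal protein or respiratory chain gene passed 2-fold, where all entries gave 3.71% higher and 2.49% lower. Counts of the short lists in this paragraph were not tested against those shares. Among 80 cytosolic ribosomal protein genes 0 passed 2-fold, with a median of -0.27 and 6 differences above 0. Among 76 nuclear genes of the respiratory chain 0 passed 2-fold, with a median of 0.17 and 67 differences above 0. Glycolysis and hypoxia genes gave 2 higher and 0 lower of 27, the phosphofructokinase Pfkp (78.6 and 17.4 FPKM) and Egln3 (1.83 and 0.11 FPKM). Retinoic acid signalling had 0 past 2-fold of 7 compared, the p53 and apoptosis list had Ccng1 alone of 18 (14.1 and 6.41 FPKM), and heat shock and stress genes had 1 higher and 3 lower of 19. Those 4 stress genes were Asns (26.9 and 12.6 FPKM), Ddit4 (25.02 and 76.3 FPKM), Gadd45a (2.14 and 6.95 FPKM) and Gadd45b (3.56 and 8.22 FPKM).

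Markers of other cell types differed in level from list to list. The interneuron list summed to 65.7 FPKM at E16 and 18.5 FPKM at E15, of which Npy took 47.4 and 8.13 FPKM. Of the 22 interneuron genes found, 9 reached 1 FPKM at E16 and 3 at E15, with Lhx6 at 1.83 and 0.62 FPKM, Gad1 at 1.01 and 0.34 FPKM, Gad2 at 0.32 and 0.13 FPKM and Lhx8 listed at 0 on both days. In callosal neurons the list summed to 134 FPKM at E16 and 133 FPKM at E15. There 8 of the 9 compared genes were lower, with Lhx6 at 0.83 and 16.3 FPKM, and 1 was higher, Npy at 119 and 15.6 FPKM. Microglial genes summed to 24.4 and 17.6 FPKM, including Aif1 at 7.09 and 3.81 FPKM and Cd68 at 6.24 and 7.92 FPKM, with Cx3cr1 at 0.032 and 0.029 FPKM and Csf1r at 0.084 and 0.077 FPKM. Astrocyte genes summed to 138 and 70.6 FPKM, of which Sparcl1 took 121 and 50.2 FPKM, with Gfap and Aqp4 listed at 0 at E16. Sums were 19.4 and 16.8 FPKM for vascular genes, 16.4 and 10.9 FPKM for the oligodendrocyte lineage, 10.96 and 10.99 FPKM for red blood cells, and 14.1 and 5.45 FPKM for Cajal-Retzius genes, with Reln making up most of that last sum. Striatal and ventral telencephalic genes summed to 96.8 FPKM at E16 and 175 FPKM at E15, with Ppp1r1b the lower member past 2-fold. Of 9 compared subplate genes 5 were higher and 2 lower, with Nxph3 and Nxph4 the lower ones.

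The same step in callosal and corticothalamic neurons separated shared from subcerebral changes. Of the 479 higher entries 102 were also 2-fold higher in callosal neurons, which is 21.3% of the subcerebral and 53.7% of the callosal entries. With corticothalamic neurons the overlap was 64, which is 13.4% of the subcerebral and 64.0% of the corticothalamic entries. In all 3 subtypes 23 entries were higher and 8 lower. Of the 322 lower entries 51 were also lower in callosal and 31 in corticothalamic neurons. Across the 12921 entries, which share libraries within each subtype but not between them, the subcerebral step had a Pearson correlation of 0.48 and a Spearman correlation of 0.47 with the callosal step, and 0.57 and 0.55 with the corticothalamic step.

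The leading shared increases came from genes of several kinds. Lars2, the mitochondrial leucyl-tRNA synthetase, had 276 FPKM at E16 and 9.79 FPKM at E15 in subcerebral neurons. It differed by 3.63 in callosal and by 4.49 in corticothalamic neurons. By P1 Lars2 stood at 62.8 FPKM in subcerebral, 89.0 FPKM in callosal and 58.1 FPKM in corticothalamic neurons. Npy1r, a receptor for neuropeptide Y, had 17.01 and 2.27 FPKM, and Npy itself was higher in all 3 subtypes. Neurogranin, Nrgn, a postsynaptic calmodulin-binding protein, had 7.55 FPKM at E16 and 1.39 FPKM at E15, ahead of 87.0 FPKM at E18 and 368 FPKM at P1. BC002163 was shared but passing, at 0.43, 8.81, 0.85 and 1.05 FPKM at E15, E16, E18 and P1. Cxxc4 (13.2 FPKM at E16 and 0.59 FPKM at E15), Ptprk (14.8 and 2.33 FPKM), Trank1 (5.34 and 0.87 FPKM), Gucy1a3 and 6330403A02Rik (13.2 and 1.22 FPKM) were the others named. The shared decreases included Dpy19l1, Tmem176b (0.26 and 7.71 FPKM) and Gm12166 (1.53 and 9.11 FPKM). Gm12166 stood at 14.9 FPKM at P1.

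A larger set passed 2-fold in subcerebral neurons and differed by under 0.5 in that direction in both others, with 142 entries higher and 102 lower. Besides Pex5l, Ncam2 and Gabrd, the higher genes with the widest gap were the palmitoyltransferase Zdhhc2 (13.05 FPKM at E16 and 1.25 FPKM at E15), BC030500 (7.78 and 0.27 FPKM), the sorting nexin Snx8 (5.23 and 0.26 FPKM), Galntl6 (5.71 and 0.12 FPKM), Csgalnact1, which starts chondroitin sulphate chains (6.39 and 0.26 FPKM), Ermn (5.60 and 0.11 FPKM) and the mitochondrial Suclg2 (3.37 and 0.12 FPKM). Ermn, known from myelinating oligodendrocytes, stood at 17.9 FPKM at E18 and did not exceed 0.16 FPKM in callosal neurons at any stage. The lower genes with the widest gap included the AMPA receptor partner Gsg1l (1.70 and 17.2 FPKM), Olfml3 (0.59 and 9.39 FPKM), Atpase6 (0.73 and 10.6 FPKM) and the receptor phosphatase Ptpru (1.41 and 10.1 FPKM), beside Ngfr, Nxph3 and Lpl. The group is set by thresholds on single pooled values, and the difference between subtypes was not tested for any of its genes. No entry moved 2-fold in subcerebral neurons and 2-fold the opposite way in both other subtypes.

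Most of the step was kept at later stages. The 479 higher entries had median levels of 2.16, 9.73, 14.8 and 16.7 FPKM at E15, E16, E18 and P1, and 442 of them were at least 2-fold above E15 at E18 and 415 at P1. The 322 lower entries had medians of 13.5, 3.87, 3.20 and 2.90 FPKM, and 260 were at least 2-fold below E15 at E18 and 251 at P1. These comparisons share the E15 value that selected the entries, so part of the persistence follows from that choice.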

How the data were processed

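RNA from sorted neurons was extracted with a proteinase K digestion, poly(A) selected and sequenced, per the labels' protocols. TopHat2 and Cufflinks and the mouse build mm9 are named in the submitters' processing notes, with no versions or settings. The authors deposited 1 table with 1 value per gene for each group of 2 libraries. Its header names no unit, and the deposited values were read as FPKM from the naming of Cufflinks and from their column sums. No label says how the 2 libraries were combined.

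Differences were log2(FPKM + 1) at E16 minus E15 over entries with at least 1 FPKM in either subcerebral column, computed with Python 3.11.15, pandas 2.3.3 and numpy 2.4.6, by code tested on simulated data. With 1 value per group there was no test. Named genes were the largest differences over all genes and among genes reaching 20 FPKM, those widest apart from or shared with the other subtypes, the leading members of each list, and every member of the subtype lists. Locus identifiers and short RNAs were left out. Further list members were named after their values were seen. The members and lists were chosen with earlier results of these data known. Promoter windows came from RefSeq on GRCm38.p6. Alternatives covered the pseudocount, filter, scaling, fold threshold and margin. Some genes are not reported here by name, though list counts and medians include them.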

Additional observations from a re-analysis of the deposited data

Results flagged for a closer look

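Some genes that passed 2-fold in opposite directions in different subtypes between E16 and E15 were marked for a closer look. The genes below are not every such entry. AK216819 (listed at 0 at E16 and 11.6 FPKM at E15 in subcerebral, 5.66 and 0 FPKM in callosal neurons) and the short RNA Snora3 also split. The difference between subtypes was not tested for any of these genes, as each group has 1 pooled value. Syt6, a synaptotagmin of corticothalamic neurons, differed by -2.16 in subcerebral and by 1.06 in corticothalamic neurons. Reln differed by 1.45 in subcerebral and by -2.29 in callosal neurons. Most compared interneuron markers were lower beside Reln in the callosal sample, though Npy was higher. Lhx6 stood there at 0.83 FPKM at E16 and 16.3 FPKM at E15, and the part of these markers in the result was not tested. The immediate early nuclear receptor gene Nr4a3 differed by -1.35 in subcerebral and by 1.14 in callosal neurons, and the tetraspanin Tspan18 by -1.50 and by 1.39.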

How the results depend on the processing

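No paired analysis was possible because the table holds 1 value per group, and leaving out a library could not be run for the same reason. Against 479 higher and 322 lower entries, a 1.5-fold threshold gave 1089 and 971, and a 3-fold threshold 184 and 106. Other pseudocounts, a filter at 5 FPKM, 3 other scalings and leaving out locus identifiers kept both counts within 1.5 times. Entries shared by all 3 subtypes, 23 higher and 8 lower, became 43 and 15 with a pseudocount of 0.5, 15 and 5 with a pseudocount of 2, 146 and 79 at 1.5-fold, and 6 and 3 at 3-fold. Entries apart from both other subtypes, 142 higher and 102 lower, became 510 and 547 at 1.5-fold, 42 and 20 at 3-fold, 59 and 48 with a margin of 0.25, and 231 and 175 with a margin of 0.75, and the higher ones 89 with the filter at 5 FPKM. With that filter the list medians were -0.65 for subplate genes, 0.024 for proliferating cells, -0.10 for voltage-gated channels, -1.47 for progenitors and 0.062 for cadherins. With no filter they were 0.18 for subplate genes, 0.10 for cadherins, -0.10 for immediate early genes, 0.0033 for microglia, -0.13 for vascular cells and 0.022 for striatal neurons. The cause of these shifts was not tested. Small differences and low genes cannot be read closely, as depth and the spread between libraries are unknown.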
